A study of Homo sapiens with 12 samples.

Results

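The 10 genes described here carry decitabine into the cell, activate or inactivate it, and supply the deoxynucleotides it competes with. They are the carriers SLC29A1 and SLC29A2, the kinase DCK, the deaminases CDA and DCTD, the triphosphatase SAMHD1, the ribonucleotide reductase subunits RRM1, RRM2 and RRM2B, and thymidylate synthase TYMS. They were chosen by symbol for these roles, and each matched 1 of the 60651 genes of the count table. The study asked how the DNA methyltransferase inhibitor decitabine and the PARP inhibitor talazoparib, alone or together, change cholangiocarcinoma cells. RNA was taken after 72 h from EGI-1 cells in DMEM given DMSO vehicle, 0.5 µM decitabine, 200 nM talazoparib or both, and from HUCCT1 cells in RPMI1640 given vehicle or 1 µM decitabine. EGI-1 and HUCCT1 are established human bile duct cancer lines, recorded in the labels as wild type, and each of the 6 groups had 2 libraries. The library names of the talazoparib arm carry the token T50 although its labels give 200 nM. Each line stood alone in its medium and at its decitabine dose. The library names also carry the token L4 in every EGI-1 library and L3 in every HUCCT1 library, and its meaning was not given. Line, medium, dose and whatever this token marks therefore cannot be told apart when the lines are compared.

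Decitabine is a deoxycytidine analogue that acts only after it has been built into DNA. Equilibrative carriers bring nucleosides through the plasma membrane, DCK adds the first phosphate, which is the limiting step of activation, and CDA removes the amino group of the free nucleoside and so inactivates it. DCTD does the same to the monophosphate, and its natural product dUMP is the substrate from which TYMS makes dTMP. SAMHD1 splits deoxynucleoside triphosphates, that of decitabine among them, while ribonucleotide reductase makes the deoxynucleotides that compete with the drug at the polymerase. RRM1 is the large subunit of that enzyme, RRM2 the small subunit of dividing cells, and RRM2B the small subunit induced by p53. RRM1, RRM2 and TYMS are also textbook genes of the G1/S transition, turned on through E2F factors.

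Library totals ranged from 23139065 to 33181930 assigned counts in EGI-1 and from 32519985 to 34965627 in HUCCT1. Every member had at least 305 counts in each library and passed the filter on low counts in every fit. Levels are given as CPM, counts scaled to a common library size by the TMM method over all 12 libraries, and differences as log2 fold changes from edgeR's quasi-likelihood test, with a standard error (SE) and a p-value adjusted by the Benjamini-Hochberg method over all genes tested, called at 0.05. Nothing says that the 2 libraries of a group came from separate cultures, so the p-values measure the spread between these libraries, which may be technical. All 8 biliary epithelial markers examined were present in both lines, with a summed level of at least 8325 CPM per library, and the hepatocyte list summed to at most 5.26 CPM. One library stood apart. EGI-1 combination replicate 2 held the leukocyte transcripts PTPRC at 12.5 CPM and CD3E at 4.87 CPM, whereas no other EGI-1 library exceeded 0.200 and 0.115 CPM, so values of the combination against vehicle are given with and without it.

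The stretches before the transcription starts are shown because decitabine, which inhibits DNA methyltransferases, lowers methylation at CpG sites. A further reason is that 3 of the members share the S phase programme. Of the 10 members, 8 had an entry in the RefSeq promoter table (build GRCh38.p14), and for each the 250 bases before the start nearest to that of the canonical GENCODE transcript were read. In the first pair every CpG is in capitals. SAMHD1, which rose with treatment in both lines, held 14 CpG sites, and CDA, which no comparison called, held 5. The median over 35116 promoters was 11. The other 6 members held 18 to 40, among them DCK with 31, which no comparison called either. A link between the number of CpG sites and the response was not tested.
SAMHD1, chr20:36951709-36951958, minus strand: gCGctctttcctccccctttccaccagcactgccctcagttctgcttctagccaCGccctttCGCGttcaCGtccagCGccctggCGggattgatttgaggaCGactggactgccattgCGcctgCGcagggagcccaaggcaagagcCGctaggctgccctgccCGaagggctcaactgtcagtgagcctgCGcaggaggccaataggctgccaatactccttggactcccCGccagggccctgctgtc
CDA, chr1:20588847-20589096, plus strand: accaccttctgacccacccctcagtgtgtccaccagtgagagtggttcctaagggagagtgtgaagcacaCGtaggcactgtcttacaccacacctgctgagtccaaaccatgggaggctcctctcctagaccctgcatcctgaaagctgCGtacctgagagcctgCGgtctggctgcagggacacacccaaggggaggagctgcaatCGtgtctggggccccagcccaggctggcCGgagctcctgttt
In the next 3 the capitals mark matches to CCAAT or to the E2F letters TTTGGCGC, TTTCGCGC, TTTGCCGC and TTTCCCGC, searched on both strands.
RRM2, chr2:10122489-10122738, plus strand: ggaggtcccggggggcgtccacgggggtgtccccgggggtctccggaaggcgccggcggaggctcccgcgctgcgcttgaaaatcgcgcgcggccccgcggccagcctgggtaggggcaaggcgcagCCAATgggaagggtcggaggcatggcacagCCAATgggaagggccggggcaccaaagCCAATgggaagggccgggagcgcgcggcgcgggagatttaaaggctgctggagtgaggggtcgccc
RRM1, chr11:4094435-4094684, plus strand: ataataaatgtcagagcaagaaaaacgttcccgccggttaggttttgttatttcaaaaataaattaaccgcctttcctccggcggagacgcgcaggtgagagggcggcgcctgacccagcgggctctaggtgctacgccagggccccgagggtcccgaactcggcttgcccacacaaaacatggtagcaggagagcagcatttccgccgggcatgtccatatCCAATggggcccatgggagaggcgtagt
TYMS, chr18:657403-657652, plus strand: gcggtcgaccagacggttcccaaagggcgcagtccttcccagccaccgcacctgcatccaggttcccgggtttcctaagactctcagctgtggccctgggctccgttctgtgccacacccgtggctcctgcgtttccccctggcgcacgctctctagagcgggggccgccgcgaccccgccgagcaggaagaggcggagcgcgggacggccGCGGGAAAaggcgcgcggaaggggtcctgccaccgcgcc
RRM2 held 3 CCAAT boxes, 123, 93 and 66 bases before the start, RRM1 held 1 and SAMHD1 held 2, a motif found in 32.0% of all promoters of this length. TYMS held the only E2F match among the members, 39 bases before the start on the minus strand, and 2.79% of promoters had such a match. No member window held the interferon response element GAAANNGAA, which 6.88% of promoters did. No motif match overlapped another, and a match is a description of the letters only.

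More members were called between the lines than between any treatment and its vehicle. Between the vehicle groups, 7 of the 10 members were called, against 55.8% of the 25096 genes tested. SLC29A2, RRM2 and DCTD were higher in HUCCT1, and TYMS, RRM2B, RRM1 and SLC29A1 were lower. With treatment, 5 members changed under decitabine in HUCCT1 (background 33.5% of 22479 genes), 3 under the combination in EGI-1 (18.7% of 22406 genes) and 2 under talazoparib alone (4.12%). In HUCCT1, 4 members fell and 1 rose, where 13.9% of all genes fell and 19.6% rose. In the EGI-1 combination 2 rose and 1 fell, where 11.1% of all genes rose and 7.61% fell. The all-gene split of 2489 higher and 1705 lower became 2177 and 2244 under upper-quartile scaling, with the same 3 members called. Under decitabine alone in EGI-1, edgeR called 0 of the 10 and DESeq2 called 0, while edgeR called 0.544% of all genes. An unadjusted edgeR p under 0.05 was reached by 3 members (SLC29A1, RRM2 and RRM2B) and by 2048 of the 22406 genes. None of these counts is taken as particular to the 10 genes, and the call rates of all genes stand beside them as a description.

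**Figure D1:**
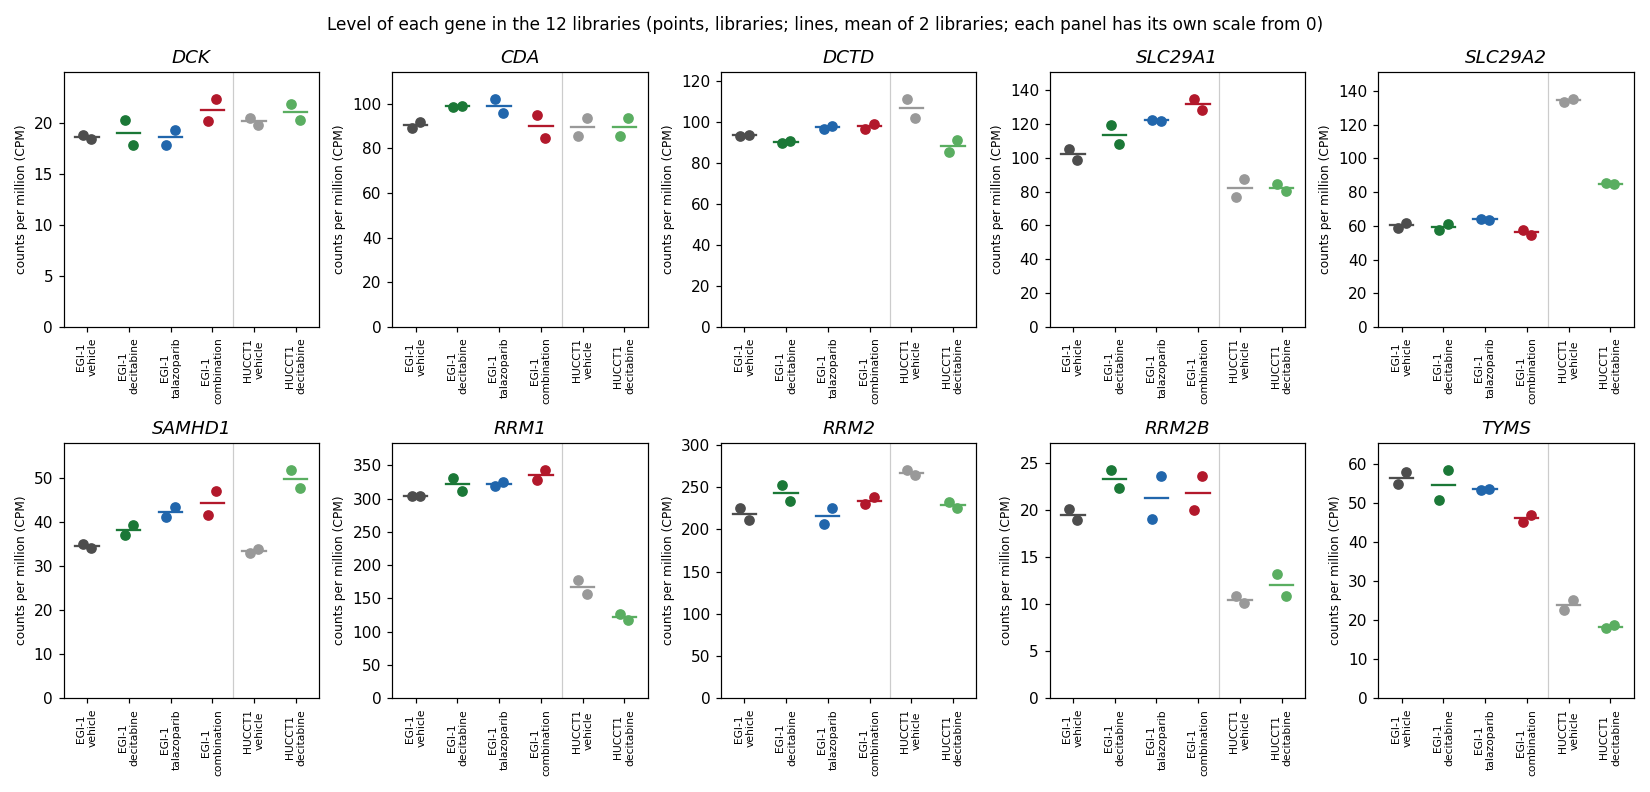
CPM, counts scaled to library size (vertical axis, each panel with its own linear scale from 0) of the 10 genes in the 6 groups (horizontal axis), with points for the libraries and lines for the mean of 2. DCK and CDA lay within 1.25-fold and 1.20-fold over all 12 libraries, whereas TYMS ranged 3.26-fold and RRM1 2.93-fold, mostly between the lines.

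The enzymes that decide between activation and inactivation of the free nucleoside varied least. DCK (ENSG00000156136.10, chr4:70992538-71030914, plus strand) had 18.7 and 18.3 CPM in EGI-1 vehicle, 20.2 and 17.8 CPM with decitabine, 17.9 and 19.3 CPM with talazoparib and 20.1 and 22.3 CPM with the combination. In HUCCT1 it had 20.5 and 19.8 CPM in vehicle and 21.8 and 20.2 CPM with decitabine. All neighbouring groups in the order of DCK levels overlapped, and no comparison called it. Its change was 0.19 ± 0.10 (SE) in the combination (0.11 without replicate 2) and 0.05 ± 0.13 in HUCCT1, with 95% intervals of -0.03 to 0.40 and -0.21 to 0.32. CDA (ENSG00000158825.6, chr1:20589086-20618903, plus strand) lay between 84.7 and 102 CPM in every library. It read 89.3 and 92.0 CPM in EGI-1 vehicle and 85.6 and 93.8 CPM in HUCCT1 vehicle, and its difference between the lines was -0.01 ± 0.08. Decitabine in HUCCT1 left it at 85.6 and 93.5 CPM, a change of -0.01 ± 0.11 (interval -0.24 to 0.21).

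CDA was also the member whose response to the combination departed most from the sum of the single drugs. Both decitabine (98.6 and 99.1 CPM) and talazoparib (102 and 95.7 CPM) libraries lay above vehicle in EGI-1, and those of the combination (95.2 and 84.7 CPM) lay on either side of it. The departure was -0.28 ± 0.10 (-0.19 without combination replicate 2), with an unadjusted edgeR p of 0.0106 and an adjusted p of 0.99985. Both edgeR and DESeq2 called 0 members in this test, in which edgeR called 0.161% of all genes. CDA alone among the members had an unadjusted p under 0.05, as had 757 of 22406 genes. DCTD (ENSG00000129187.15, chr4:182890060-182917936, minus strand) had 93.4 and 93.8 CPM in EGI-1 vehicle, and all 8 EGI-1 libraries lay between 89.6 and 98.8 CPM. In HUCCT1 it fell from 111 and 102 CPM to 85.4 and 91.4 CPM with decitabine, without overlap (-0.28 ± 0.11, adjusted p = 0.0495 in edgeR). This call was at the threshold. It was kept in 4 of 11 alternatives. It was lost under upper-quartile (adjusted p = 0.0739) and median-of-ratios scaling (0.0527), in DESeq2 (0.0555), in a fit without robust estimation (0.0521) and without vehicle replicate 1, decitabine replicate 1 or decitabine replicate 2 (adjusted p = 0.112 to 0.266).

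Of the 2 equilibrative carriers, SLC29A1 rose in EGI-1 and SLC29A2 fell in HUCCT1. SLC29A1 (ENSG00000112759.19, chr6:44219553-44234142, plus strand), the main nucleoside carrier of the plasma membrane, had 105 and 98.9 CPM in EGI-1 vehicle, 119 and 108 CPM with decitabine, 122 and 122 CPM with talazoparib and 135 and 129 CPM with the combination. Its 4 EGI-1 groups did not overlap in CPM and stood in that order. Against vehicle it rose by 0.26 ± 0.07 with talazoparib (edgeR adjusted p = 0.0303) and by 0.36 ± 0.07 with the combination (adjusted p = 0.000884). The second call held in all 12 alternatives, with a change of 0.32 to 0.40 (0.40 without combination replicate 2). The talazoparib call ended when any 1 of the 4 libraries compared was left out (adjusted p = 0.141 to 0.416). With decitabine alone SLC29A1 read 0.16 ± 0.07 (adjusted p = 0.422). In HUCCT1 it had 76.7 and 87.3 CPM in vehicle and 84.6 and 80.3 CPM with decitabine, a change of -0.00 ± 0.11 (interval -0.23 to 0.23).

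SLC29A2 (ENSG00000174669.12, chr11:66362521-66372214, minus strand), the second carrier, was called against vehicle in HUCCT1 and with no treatment in EGI-1. It had 134 and 135 CPM in HUCCT1 vehicle and 85.1 and 84.9 CPM with decitabine, the largest fall among the members in that line (-0.67 ± 0.11, edgeR adjusted p = 1.88e-05). The fall lay between -0.69 and -0.65 in all 11 alternatives. In EGI-1 it had 58.7 and 61.7 CPM in vehicle, 57.6 and 61.3 CPM with decitabine, 63.9 and 63.6 CPM with talazoparib and 57.7 and 54.7 CPM with the combination. Vehicle HUCCT1 cells held 1.16 ± 0.07 more on the log2 scale than vehicle EGI-1 cells (adjusted p = 1.74e-11). SLC29A1 was lower in HUCCT1 by contrast (-0.31 ± 0.08, adjusted p = 0.00237).

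**Figure D2:**
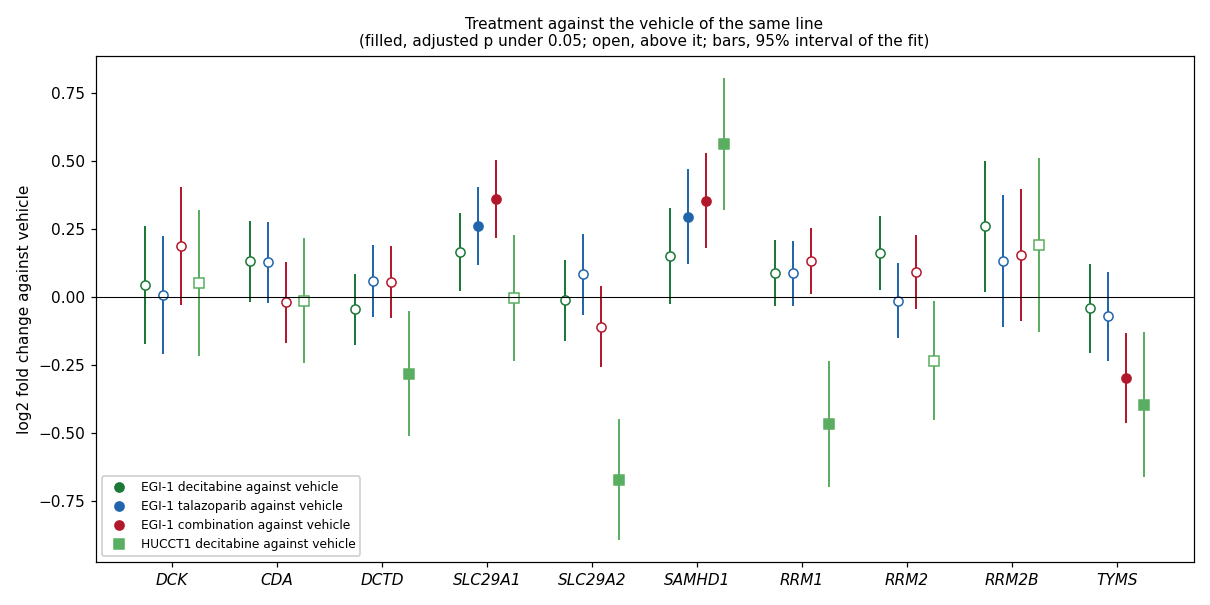
Log2 fold change against the vehicle of the same line (vertical axis) for the 10 genes (horizontal axis), with circles for the 3 EGI-1 treatments, squares for HUCCT1 decitabine, 95% intervals of the edgeR fit as bars, and filled marks for an adjusted p under 0.05. SAMHD1 lies above 0 in all 4 comparisons, SLC29A1 is filled for talazoparib (0.26) and the combination (0.36), and SLC29A2, RRM1, TYMS and DCTD are filled below 0 for HUCCT1.

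SAMHD1 (ENSG00000101347.10, chr20:36890229-36951893, minus strand) rose in both lines. In EGI-1 it had 34.9 and 34.1 CPM in vehicle, 37.0 and 39.3 CPM with decitabine, 41.1 and 43.4 CPM with talazoparib and 41.6 and 47.0 CPM with the combination. All 6 treated libraries lay above both vehicle libraries. The change was 0.30 ± 0.08 with talazoparib (edgeR adjusted p = 0.0490) and 0.35 ± 0.08 with the combination (adjusted p = 0.00501), and with decitabine alone it read 0.15 ± 0.08 (adjusted p = 0.623). SAMHD1 is abundant in leukocytes, and without combination replicate 2, which carried leukocyte transcripts, the change was 0.26 ± 0.10 and was no longer called (adjusted p = 0.0973). Leaving out either vehicle library also ended it (adjusted p = 0.0511 and 0.0791). The talazoparib call was lost under upper-quartile scaling (adjusted p = 0.0611) and without any 1 of its 4 libraries (0.136 to 0.402). The talazoparib libraries held PTPRC at 0.0815 and 0.200 CPM, and the part of leukocyte RNA in these values was not tested.

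In HUCCT1, SAMHD1 went from 32.9 and 33.9 CPM in vehicle to 51.7 and 47.7 CPM with decitabine, the only member that rose there (0.56 ± 0.12, edgeR adjusted p = 0.000422). The rise was 0.50 to 0.62 in all 11 alternatives and was called in each. PTPRC stood at 0.0989 and 0.132 CPM in these vehicle libraries and at 0.0937 and 0.101 CPM in the decitabine libraries. The summed level of the 5 leukocyte markers went from at most 0.593 CPM to at least 1.37 CPM, with CD3E at 0 and 0.0331 CPM in vehicle and 0.531 and 0.777 CPM with decitabine. The summed level of the 5 fibroblast and endothelial markers, mostly COL1A1, moved from at most 34.3 CPM in vehicle to at least 179.8 CPM with decitabine, and that of the 8 biliary epithelial markers from at least 14789 CPM to at most 10747 CPM. The part of these shifts in the SAMHD1 result was not tested. TLDC2, on the opposite strand, overlaps 9.86% of the annotated SAMHD1 exon bases and rose with it (1.81 ± 0.63, adjusted p = 0.0290), though with at most 24 counts in any library. Before treatment the lines differed in SAMHD1 by -0.05 ± 0.09 (interval -0.24 to 0.14), which was not called.

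SAMHD1 is inducible by interferon, and interferon-stimulated genes were therefore read beside it. A link between these genes and the SAMHD1 values was not tested. Of 27 tested in EGI-1, 8 rose in the combination and 19 were not called, with a median change of 0.20 (0.23 without replicate 2). Over all genes 11.1% rose in that comparison. IFI6 (1.49 ± 0.17), OAS2 (1.39 ± 0.22), ISG20 (0.81 ± 0.19) and BST2 (0.79 ± 0.18) rose furthest. Without replicate 2 they read 1.53, 1.04, 0.46 and 0.90, and ISG20 was no longer called (adjusted p = 0.159). With talazoparib alone in EGI-1, 2 of the 27 rose and 25 were not called, where 2.83% of all genes rose. In HUCCT1 9 of 28 rose and 5 fell, where 19.6% of all genes rose and 13.9% fell. HERC5 (2.97 ± 0.59), IFI44L (1.40 ± 0.53) and IRF7 (1.37 ± 0.20) were among the former and IFIT1 (-1.01 ± 0.18) among the latter. HERC5 and IFI44L were near the floor in HUCCT1 vehicle, at 0.0989 and 0.132 CPM and at 0.297 and 0.265 CPM. The size of their folds is therefore uncertain.

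Of the reductase subunits, RRM1 fell in HUCCT1, and none was called against vehicle in EGI-1. RRM1 (ENSG00000167325.15, chr11:4094707-4138932, plus strand) had 304 and 303 CPM in EGI-1 vehicle, 331 and 312 CPM with decitabine, 319 and 325 CPM with talazoparib and 328 and 342 CPM with the combination. Every treated EGI-1 library was above both vehicle libraries, and the largest change, in the combination, was 0.13 ± 0.06 (adjusted p = 0.107 in edgeR, and 0.0120 in a fit of the 4 libraries of these arms alone). Without combination replicate 2 it was 0.10 (adjusted p = 0.391). In HUCCT1 RRM1 fell from 177 and 157 CPM to 126 and 117 CPM (-0.47 ± 0.11, adjusted p = 0.00172), a call kept in all 11 alternatives. RRM2 (ENSG00000171848.16, chr2:10120698-10211725, plus strand) had 269.8 and 264 CPM in HUCCT1 vehicle and 232 and 225 CPM with decitabine. The groups did not overlap, but the change of -0.23 ± 0.10 was not called (adjusted p = 0.0919, and 0.0214 when all 12 libraries shared 1 fit). In EGI-1 RRM2 had 225 and 212 CPM in vehicle, 252 and 234 CPM with decitabine, 207 and 225 CPM with talazoparib and 230.4 and 238 CPM with the combination.

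RRM2B (ENSG00000048392.12, chr8:102204502-102238961, minus strand) had the lowest counts of the set and was called with no treatment. It had 20.1 and 18.9 CPM in EGI-1 vehicle, 24.2 and 22.3 CPM with decitabine, 19.0 and 23.6 CPM with talazoparib and 20.0 and 23.6 CPM with the combination. HUCCT1 held 10.9 and 10.1 CPM in vehicle and 13.2 and 10.9 CPM with decitabine. It read 0.26 ± 0.11 with decitabine in EGI-1 (edgeR adjusted p = 0.483), 0.15 ± 0.11 with the combination (0.03 without replicate 2) and 0.19 ± 0.15 with decitabine in HUCCT1. Of 24 other p53 targets tested, 11 rose in the EGI-1 combination and the rest were not called. The median change of the 24 was 0.19 (0.16 without replicate 2). CDKN1A, the CDK inhibitor p21, read 1.09 ± 0.08 (1.11 without replicate 2) and PLK3 0.75 ± 0.10 (0.81). BTG2 read 2.33 ± 0.53, but its 0.613 and 2.30 CPM against 0.263 and 0.324 CPM in vehicle put most of this in replicate 2, and without that library it was 1.05 ± 0.57 (adjusted p = 0.280). In HUCCT1 decitabine 9 rose, PLK3 by 1.24 ± 0.12 and CDKN1A by 0.64 ± 0.12, and 4 fell, CCNG1 furthest (-0.89 ± 0.18). Over all genes 11.1% rose in the combination, and 19.6% rose and 13.9% fell in HUCCT1 decitabine. Between the vehicle groups HUCCT1 had less RRM2B (-0.90 ± 0.13, adjusted p = 4.43e-06) and less RRM1 (-0.86 ± 0.08, adjusted p = 2.68e-09), and more RRM2 (0.29 ± 0.07, adjusted p = 0.00183). Under upper-quartile scaling, which moved the median of all genes in this comparison to -0.13, RRM2 read 0.17 (adjusted p = 0.0503) and DCTD 0.07 in place of 0.19 ± 0.07 (adjusted p = 0.446 in place of 0.0365). The DCTD call also ended without EGI-1 vehicle replicate 1 or 2 or HUCCT1 vehicle replicate 1 (adjusted p = 0.137 to 0.205).

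TYMS (ENSG00000176890.16, chr18:657653-673578, plus strand) was the one member that fell in both lines. It had 54.8 and 57.9 CPM in EGI-1 vehicle, 50.7 and 58.4 CPM with decitabine, 53.5 and 53.7 CPM with talazoparib and 45.2 and 47.0 CPM with the combination. The combination libraries lay below all 6 others of that line. The change was -0.30 ± 0.08 against vehicle (edgeR adjusted p = 0.0112) and -0.26 ± 0.08 against decitabine (adjusted p = 0.04999, just under the threshold, and -0.28 without combination replicate 2). The call against vehicle was lost without any 1 of the 4 libraries compared (adjusted p = 0.0507 to 0.164, and 0.0507 without combination replicate 2), and that against decitabine was lost in DESeq2 (adjusted p = 0.0660) and without decitabine replicate 2 or either combination library (0.149 to 0.282). In HUCCT1 TYMS fell from 22.7 and 25.1 CPM to 17.9 and 18.7 CPM (-0.40 ± 0.13, adjusted p = 0.0180), a call lost without vehicle replicate 2 or either decitabine library (adjusted p = 0.0606 to 0.109). The widest gap between the lines was also in TYMS, lower by 1.24 ± 0.09 in HUCCT1 vehicle cells (log2 difference -1.24, adjusted p = 1.95e-10).

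The TYMS values share ground with a neighbour. ENOSF1 runs on the opposite strand and overlaps 967 exon bases, 39.9% of the annotated TYMS exon length, and the strand setting of the counting was not stated. ENOSF1 also fell in the EGI-1 combination (-0.21 ± 0.07, edgeR adjusted p = 0.0394) and in HUCCT1 decitabine (-0.42 ± 0.12, adjusted p = 0.00673), and was lower in HUCCT1 vehicle (-1.49 ± 0.08). How far reads were shared between these 2 genes was not tested. B4GAT1-DT overlaps 10.3% of SLC29A2 exon bases and read -0.08 ± 0.19 in HUCCT1 decitabine. Between the vehicle groups it was higher in HUCCT1 (0.72 ± 0.18, edgeR adjusted p = 0.00189), as SLC29A2 was. MOB1B, on the same strand as DCK, overlaps 6.41% of its exon bases and read 0.06 ± 0.13 in HUCCT1 decitabine. In the EGI-1 combination MOB1B read 0.22 ± 0.10 (edgeR adjusted p = 0.130), and between the vehicle groups -0.55 ± 0.11 (adjusted p = 0.000215). How far reads were shared in these pairs was not tested either.

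The combination was also compared with each single drug. Against decitabine alone, the combination called 1 member, TYMS, where 7.68% of all genes were called. Against talazoparib alone it called 0 of 10 in edgeR and 0 in DESeq2, where edgeR called 1.92% of all genes. An unadjusted edgeR p under 0.05 was reached there by 3 members (CDA, SLC29A2 and TYMS) and by 2977 of 22406 genes. These comparisons share the combination libraries.

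The response to decitabine differed between the lines in 4 members, where 15.9% of 25096 genes differed. RRM1 (-0.54 ± 0.11, edgeR adjusted p = 0.00123) and SLC29A2 (-0.64 ± 0.11, adjusted p = 0.000168) were lower in their response in HUCCT1, where they fell, than in EGI-1, where neither was called, and both calls of the difference held in all 13 alternatives. RRM2 also went lower in HUCCT1 (-0.38 ± 0.10, adjusted p = 0.0143), with EGI-1 at 0.16 ± 0.06 and HUCCT1 at -0.23 ± 0.10. SAMHD1 rose further in HUCCT1 (0.43 ± 0.13, adjusted p = 0.0237). Leaving out EGI-1 vehicle replicate 2 ended the calls of RRM2 (adjusted p = 0.0978) and SAMHD1 (0.0800), and EGI-1 decitabine replicate 1 did the same (0.0603 and 0.0921). SAMHD1 was also lost without EGI-1 vehicle replicate 1, HUCCT1 vehicle replicate 1 or HUCCT1 decitabine replicate 1. TYMS and DCTD did not pass (-0.34 ± 0.13, adjusted p = 0.0866, and -0.22 ± 0.11, adjusted p = 0.183). The doses differed, so these values compare 1 µM in HUCCT1 with 0.5 µM in EGI-1.

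Other genes of the G1/S programme fell in the EGI-1 combination and in HUCCT1 decitabine. With decitabine alone in EGI-1, edgeR called 0 of 40 (median -0.01) and DESeq2 called 0. An unadjusted edgeR p under 0.05 was reached by 7 of the 40 and by 2048 of all 22406 genes. With talazoparib alone 9 fell, where 1.29% of all genes fell. Of 40 other S phase genes, 18 fell in the EGI-1 combination and 22 were not called. Their median change was -0.23 (-0.26 without replicate 2), beside -0.02 for all genes. Over all genes 7.61% fell in the combination. The summed level of the 40 was at least 3778 CPM in vehicle and at most 3136 CPM in the combination. MCM6 (-0.86), MCM5 (-0.80), PCNA (-0.61) and WDR76 (-0.58) fell furthest among those called. Without replicate 2 these read -0.83, -0.78, -0.64 and -0.60. RRM1 and RRM2 read 0.13 and 0.09 there (0.10 and 0.07 without replicate 2) and were not called, and TYMS, at -0.30, lay within the range of the list. In HUCCT1 27 of the 40 fell, where 13.9% of all genes fell, with a median of -0.43 beside 0.00 for all genes. CDCA7 (-1.45), BRIP1 (-1.08), MCM6 (-0.95) and MCM5 (-0.87) fell furthest. There RRM1 (-0.47) and TYMS (-0.40) lay near the median of the list. In bulk RNA, fewer cells in S phase and less RNA per cell cannot be told apart.

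**Figure D3:**
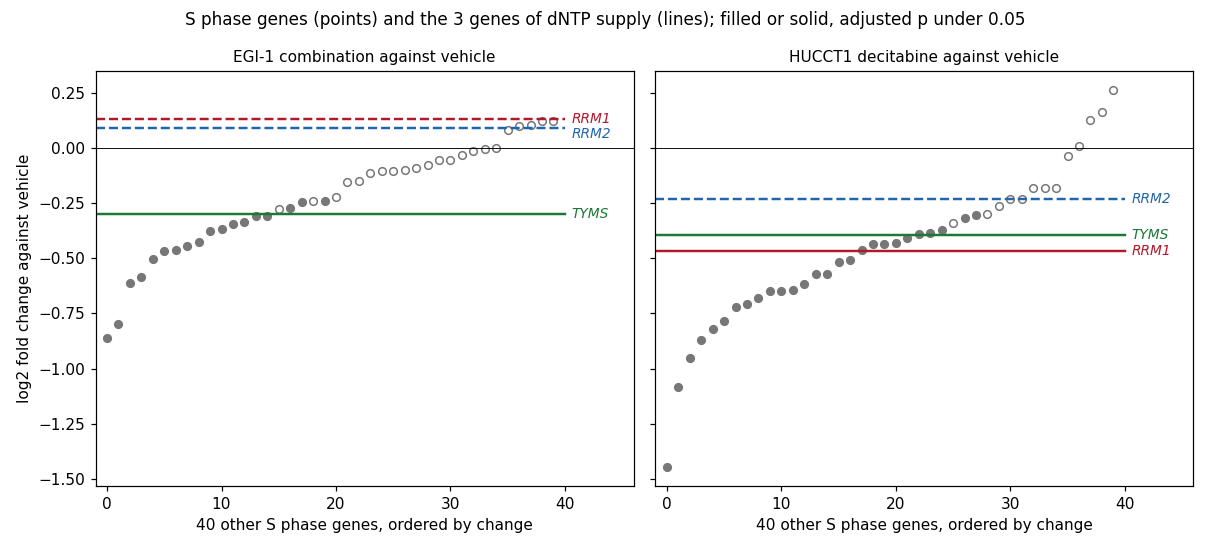
Log2 fold change against vehicle (vertical axis) of 40 S phase genes ordered by change (points) in the EGI-1 combination (left) and HUCCT1 decitabine (right), with RRM1, RRM2 and TYMS as horizontal lines, filled or solid where the adjusted p was under 0.05. In EGI-1 the lines of RRM1 (0.13) and RRM2 (0.09) run along the upper end of the points, and in HUCCT1 all 3 lines lie below 0.

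Among the remaining genes of nucleoside handling, DUT fell in both lines. Of 10 genes of de novo pyrimidine and folate synthesis, 5 fell in HUCCT1 with decitabine and none rose. Over all genes 13.9% fell and 19.6% rose there. Among the 5 were CTPS2 (-0.57 ± 0.12), which makes CTP, MTHFD1 (-0.54 ± 0.10) and CAD (-0.36 ± 0.11). DUT, which hydrolyses dUTP to the dUMP that TYMS takes up, had 43.7 and 43.8 CPM in EGI-1 vehicle and 26.0 and 23.8 CPM with the combination (-0.82 ± 0.08, adjusted p = 1.86e-06, and -0.75 without replicate 2). In HUCCT1 DUT went from 57.6 and 58.2 CPM to 35.1 and 43.1 CPM (-0.58 ± 0.12, adjusted p = 0.000456).

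Of 15 genes of nucleotide hydrolysis and base release, 3 rose and 3 fell in the combination, with a median change of 0.13 (0.04 without replicate 2). Over all genes 11.1% rose and 7.61% fell in the combination. PNP, which frees purine bases, rose by 0.42 ± 0.07 (0.36 without replicate 2). NUDT1 read -0.54 ± 0.17 and ADA 0.35 ± 0.11, and both calls were lost without replicate 2 (-0.35, adjusted p = 0.311, and 0.39, adjusted p = 0.0749). In HUCCT1 2 rose and 4 fell, where 19.6% of all genes rose and 13.9% fell. The pyrimidine phosphorylases TYMP (1.18 ± 0.16) and UPP1 (0.81 ± 0.11) rose, while NT5E, the surface 5′-nucleotidase CD73 (-1.06 ± 0.11), DPYD, which breaks down uracil and thymine (-0.92 ± 0.13), and DUT were among those that fell. Of 12 other nucleoside and nucleotide kinases 1 rose in the combination, where 11.1% of all genes rose. It was the mitochondrial NME4 (0.42 ± 0.08, and 0.51 without replicate 2). In HUCCT1 3 rose, NME4 (1.51 ± 0.30), NME2 (0.47 ± 0.13) and NME1 (0.38 ± 0.12), where 19.6% of all genes rose. DTYMK, which phosphorylates dTMP, fell (-0.34 ± 0.11), where 13.9% of all genes fell. NME4 was low there, at 0.791 and 0.893 CPM in vehicle and 2.31 and 2.53 CPM with decitabine.

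Of 5 other nucleoside transporters, 4 passed the filter. SLC29A3 was the most abundant, at 7.42 to 10.8 CPM in EGI-1 and 32.8 to 36.9 CPM in HUCCT1, and was called with no treatment against vehicle. SLC28A1, a sodium-coupled pyrimidine nucleoside carrier, had 5.06 and 5.001 CPM in EGI-1 vehicle and 2.94 and 3.26 CPM with the combination (-0.70 ± 0.19, edgeR adjusted p = 0.0167). In HUCCT1 it stood at 0.0989 and 0 CPM in vehicle and at 0.781 and 1.01 CPM with decitabine (adjusted p = 0.000125), levels too low for a fold to be given. SLC29A4 had 0.231 and 0.397 CPM in HUCCT1 vehicle and 2.50 and 2.50 CPM with decitabine (2.97 ± 0.37, adjusted p = 5.75e-07). SLC28A3 rose in both, from at most 0.131 CPM to at least 0.490 CPM in the EGI-1 combination (adjusted p = 0.0254) and from 0.824 and 0.661 CPM to 2.16 and 1.28 CPM in HUCCT1 (1.20 ± 0.36, adjusted p = 0.0104). The 2 calls in EGI-1 were lost without replicate 2 of the combination.

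Ratios between members of opposing or alternative roles were taken within each library, on CPM per kb of the canonical transcript. With 2 libraries a group the exact permutation test cannot give a p below 0.333, so these ratios carry no call. CDA exceeded DCK by 13.1-fold to 16.5-fold in the group means, and the 2 libraries of the combination, at log2 ratios of 3.87 and 3.56, lay below those of vehicle, at 3.88 and 3.96. The carriers changed order with the line: SLC29A1 to SLC29A2 was 2.00 in EGI-1 vehicle and 0.718 in HUCCT1 vehicle. The ratio rose to 2.76 in the combination and to 1.14 in HUCCT1 decitabine, without overlap with vehicle in either case. RRM2 to RRM2B was 16.4 in EGI-1 vehicle, 14.9 to 15.8 in its treated groups, 37.4 in HUCCT1 vehicle and 27.98 with decitabine. The size of a ratio depends on the length used, while its change between groups does not. Per kb of all annotated exon bases, SLC29A1 and SLC29A2 read 23.7 and 22.1 CPM in EGI-1 vehicle. In HUCCT1 decitabine they read 19.2 and 31.2 CPM, so that SLC29A1 was the lower there. On that length RRM2 and RRM2B read 23.8 and 3.62 CPM in EGI-1 vehicle.

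**Figure D4:**
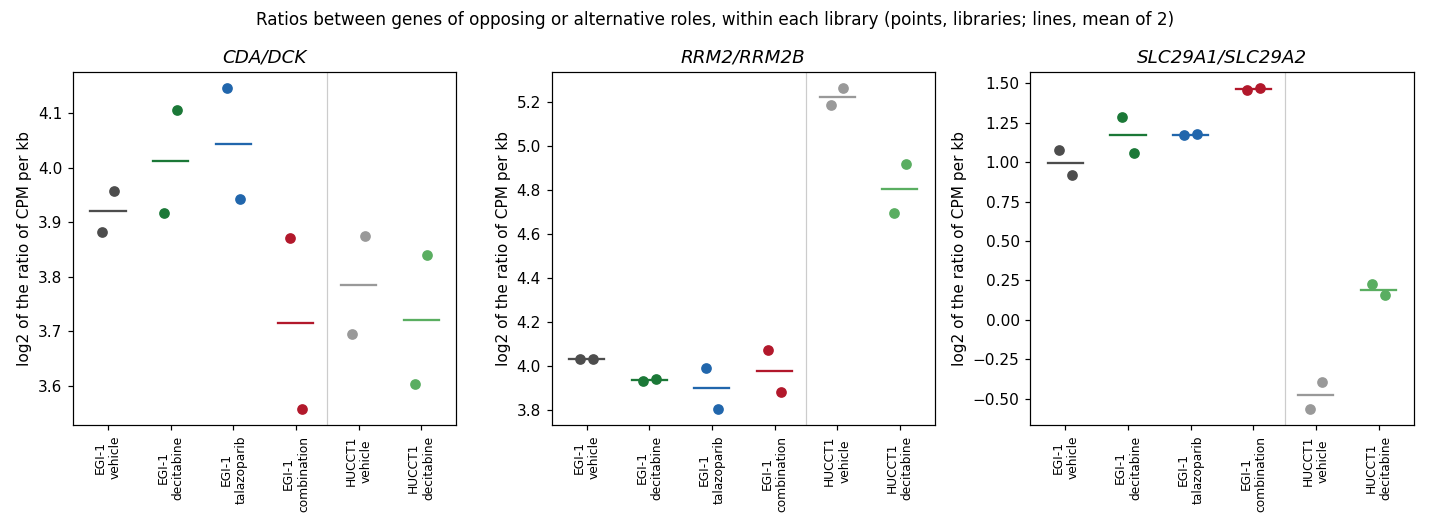
Log2 ratio of CPM per kb within each library (vertical axes, own scale per panel) for CDA to DCK, RRM2 to RRM2B and SLC29A1 to SLC29A2 over the 6 groups (horizontal axis), with points for libraries and lines for the mean of 2. The carrier ratio of the combination (2.76 as a fold) and of HUCCT1 decitabine (1.14) stands above that of the vehicle of its line (2.00 and 0.718), and RRM2 to RRM2B separates the lines.

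Genes whose pattern was most like that of a member were sought over the 12 libraries among 13328 genes, by Pearson's r of log2 CPM after each line was centred on its own mean. The 12 points share libraries and groups, so r is a description. For SAMHD1 the closest were SAV1 (r = 0.981), ARHGAP31 (0.978) and MFSD2A (0.977). For SLC29A2 they were SHANK2 (0.989), PPARA (0.985) and ESPL1 (0.982), and for RRM1 ADIPOR2 (0.986), RAD18 (0.984) and NNT (0.981). SLC29A1 was followed most closely by PVR (0.962), FMNL3 (0.950) and CHD8 (0.934), TYMS by BMP4 (0.963), PRR15 (0.963) and DAPK1 (0.960), and DCTD by PAWR (0.944), F11R (0.944) and FUCA2 (0.941). None of these 18 genes was a member, and the other 4 members were not compared.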

How the data were processed

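RNA from 12 libraries of EGI-1 and HUCCT1 cells was sequenced after ribosomal RNA removal. The authors deposited raw read counts per gene (60651 genes), in the layout of featureCounts. The submitters' processing notes list fastp, Trim Galore, HISAT2, featureCounts and GRCh38, whereas the study's methods name STAR and RSEM. The annotation release, strand setting and treatment of multiply mapped reads were not given in the sources used here, and they bear on genes that share exon bases, such as TYMS and ENOSF1.

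Symbols and positions were taken from GENCODE 44, which matched 60437 genes. Counts were filtered by group (filterByExpr), TMM-scaled and tested with edgeR 4.0.16 (robust quasi-likelihood, R 4.3.3), called at a Benjamini-Hochberg adjusted p under 0.05. One fit held the 8 EGI-1 libraries, one the 4 HUCCT1 libraries and one all 12 for comparisons between lines. The fit was tested on simulated counts. DESeq2 1.42.0, 2 other scalings, no filter, a non-robust fit, a replicate block, fewer or more libraries per fit and leaving out each library were alternatives. CPM per kb used the canonical transcript length. Promoter windows were read from RefSeq (GRCh38.p14).

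The members and lists were chosen with earlier results of these data known. Named genes were all members, up to 4 called genes of largest change per list, the 3 genes most like each called member, and genes overlapping a member, with 1 list gene not reported here. The medians, values and calls of listed genes without EGI-1 combination replicate 2 were added after seeing the data. With 23139065 to 34965627 counts per library, every member had at least 305 counts in each.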

Additional observations from a re-analysis of the deposited data

Results flagged for a closer look

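In 4 members the response to decitabine differed between HUCCT1 and EGI-1 by a test of the difference in 1 edgeR fit of all 12 libraries. SLC29A2 differed by -0.64 ± 0.11 on the log2 scale (HUCCT1 minus EGI-1, adjusted p = 0.000168) and RRM1 by -0.54 ± 0.11 (adjusted p = 0.00123), and both passed in all 13 alternatives. RRM2 differed by -0.38 ± 0.10 (adjusted p = 0.0143), which was lost without EGI-1 vehicle replicate 2 or EGI-1 decitabine replicate 1. SAMHD1 differed by 0.43 ± 0.13 (adjusted p = 0.0237), which was lost without a filter on low counts (0.36, adjusted p = 0.0861) and without any 1 of 5 libraries (adjusted p = 0.0690 to 0.126). HUCCT1 received 1 µM in RPMI1640 and EGI-1 0.5 µM in DMEM, and their library names carry different tokens (L3 and L4). Line, dose, medium and whatever the token marks therefore cannot be told apart.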

How the results depend on the processing

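Of 497 member values under an alternative, 424 kept their direction and side of the threshold, 54 lost a call, 5 gained one and 14 changed sign. Members called with talazoparib were 2, but 1 under upper-quartile scaling, 1 in a fit without robust estimation and 0 when any 1 library was left out. Leaving out 1 library gave 1 to 2 members in the combination, 0 to 2 against decitabine alone, 3 to 4 in HUCCT1, 6 to 7 between the lines and 2 to 4 for the difference of decitabine effects. The single member called between the combination and decitabine became 0 under median-of-ratios scaling, DESeq2, a fit without robust estimation and a fit of those 4 libraries alone. The cause of these changes was not tested.

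Signs changed only in values near 0. Under upper-quartile scaling CDA and SLC29A1 read 0.0100 and 0.0217 in HUCCT1 decitabine and DCK -0.000152 between the lines, SLC29A1 read 0.00738 with all 12 libraries, and CDA 0.00492 between the lines without a filter. With 1 library left out CDA ranged from -0.104 to 0.0661 in the combination, -0.0862 to 0.0440 in HUCCT1 decitabine and -0.0808 to 0.0565 between the lines, DCK from -0.00839 to 0.108 and SLC29A1 from -0.102 to 0.0727 in HUCCT1 decitabine.

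Deviations of same-numbered libraries correlated from -0.257 to 0.226 in EGI-1, with both signs, and at 0.230 in HUCCT1. With 2 libraries a group these values do not settle whether replicate numbers pair the libraries. With a replicate block, by title number or by library name, 0 members were called with talazoparib and 0 between the combination and decitabine, while RRM2 passed in HUCCT1 by title number (adjusted p = 0.00132). Genes called with decitabine in EGI-1 numbered 60 and 75 with these blocks against 122. Those between the combination and talazoparib numbered 249 by title number against 431. In HUCCT1 decitabine the block by title number called more genes, 5488 higher and 4648 lower in place of 4404 and 3121.

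Counts over all genes moved more. Decitabine in EGI-1 called 335 genes with no filter, 43 with its 4 libraries alone and 22 to 417 with 1 library left out. The combination against talazoparib called 897, 700 and 111 to 440, and the departure called 71 in place of 36 with no filter and 27 to 85 with 1 left out. Talazoparib called 1851 with its 4 libraries alone and 247 to 500 with 1 left out, in place of 923, and the combination against decitabine 963 and 853 to 2544 in place of 1720. The combination called 1850 to 2976 in place of 4194 with 1 left out, and without a filter 44.6% in place of 54.8% of the genes called for the difference of decitabine effects were higher.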
